A study of Morus alba var. atropurpurea with 12 samples.

Results

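A set of 64 mulberry root transcripts was low at the highest cadmium dose, while their group means at the lower doses stayed near control. They were chosen by a rule on FPKM, fragments scaled to transcript length and to the mapped total of the library. A transcript entered when its mean log2(FPKM + 1) at 5 and at 10 mM lay within 0.5 of the control mean, its mean at 20 mM lay at least 0.75 below the control mean, and each 20 mM library lay below all 9 other libraries. It also needed at least 1 FPKM in 3 or more libraries. The 64 members were 0.36% of the 17782 transcripts that met this last condition, out of 22727 listed in any library. Because the rule used all 4 groups, the fall and the separation of the groups are descriptions of what was chosen and carry no test.

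The libraries came from roots of Morus alba var. atropurpurea, the mulberry cultivar Yuesang10. The 12 libraries fall into 4 groups of 3: a control in Hoagland nutrient solution without cadmium and plants given cadmium chloride at 5, 10 or 20 mM for 20 days. All plants, controls included, had their shoots cut to 10 cm and their roots to 2 cm and spent 3 days in the solution before treatment. The solution was changed every 5 days in all groups. Whether replicates were separate plants is not stated, so any p-value reflects the spread between these libraries alone, and that spread may be technical. The series text speaks of fruit while every sample is labelled root. That tissue label could not be checked against marker genes, because the deposited tables give XM identifiers that they do not pair with gene names.

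Cadmium is a toxic metal without a known use in land plants. Root cells take it up through carriers of essential divalent metals, bind it to thiol peptides such as phytochelatins and store it in the vacuole. At high doses roots stop growing, and transcripts for growth, transport and metabolism are often lowered. A set that is held near the control level at low doses and is low only at the top dose describes a change seen in a narrow part of the dose range. What the 64 transcripts encode is not known from the files, so they are ordered here by level and by pattern, not by role. In whole roots, fewer cells of a type and less RNA per cell cannot be told apart.

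Libraries of the same group differed before any member was considered. On the first principal component of all tested transcripts, which held 20.3% of the variance, 10 mM replicate 1 scored -21.1, whereas 10 mM replicates 2 and 3 scored 33.2 and 23.9. Control replicate 1 lay farthest out, at -51.2, whereas the other controls stood at -21.6 and -26.1. The 5 mM libraries ranged from -19.4 to -13.7 and the 20 mM libraries from 30.3 to 46.3. Replicate 1 at 10 mM thus lay among the control and 5 mM libraries and the other two lay near those at 20 mM. Read totals are not given. The FPKM worth of 1 fragment, estimated from sparse transcripts, differed little between libraries (0.954 to 1.05 relative to their mean).

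The rule narrowed the table in steps. Of the tested transcripts, 10872 had group means within 0.5 of control at 5 and 10 mM, and 315 of those fell by 0.75 or more at 20 mM. In 251 of the 315 at least 1 library of 20 mM reached the level of another library, which left the 64. Among the 251, the overlap involved a 10 mM library in 210, a control library in 156 and a 5 mM library in 154, and it involved 10 mM alone in 48. Over all tested transcripts, 218 (1.23%) had every 20 mM library below all 9 others. The same limits in the other direction gave 92 transcripts that rose only at 20 mM (0.517% of those tested). Applied to the lower doses in place of 20 mM, they gave 24 transcripts low only at 10 mM (0.135%) and 30 low only at 5 mM (0.169%). These counts were not tested against each other.

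**Figure D1:**
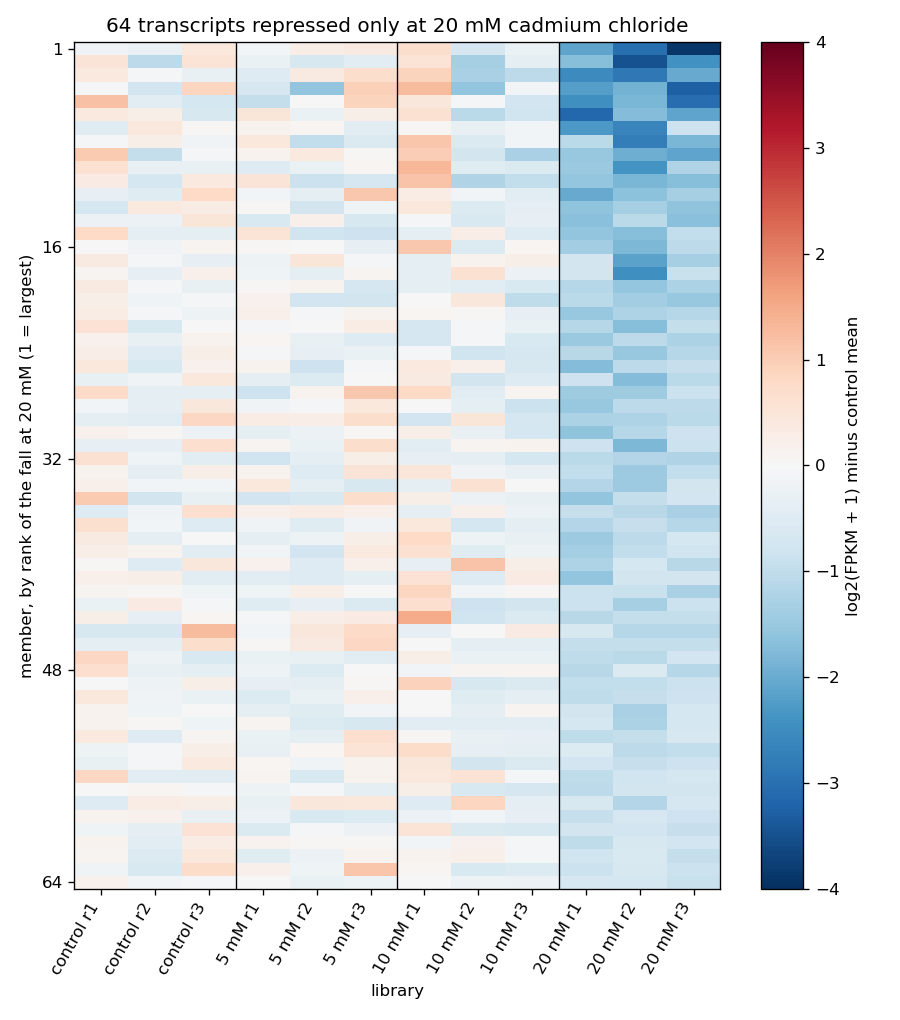
Each row is 1 of the 64 members, ordered by the fall at 20 mM, each column is 1 library (r1 to r3 are replicates), and colour is log2(FPKM + 1) minus the member's control mean. The 3 columns of 20 mM are blue in every row, as the rule requires, and 10 mM replicate 1 is redder than 10 mM replicates 2 and 3 in 44 rows.

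The fall from control to 20 mM ran from 0.76 to 3.01 on the log2(FPKM + 1) scale, with a median of 1.15, while the median change of all tested transcripts was 0.06. It was at least 1 in 44 members, at least 1.5 in 13 and at least 2 in 6. On the FPKM scale, the control mean was 2.80 times the 20 mM mean at the median of the 63 members that were listed in any 20 mM library, and it was 2 or more times that mean in 54 of the 64. The scale adds 1 to each value and so understates the fall of low members.

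XM_010101516.1 had the largest fall and also the widest separation. Its controls stood at 206.81, 187.68 and 303.96 FPKM, the 5 mM libraries at 208.80, 273.18 and 293.15, the 10 mM libraries at 369.48, 142.54 and 189.48, and the 20 mM libraries at 51.58, 27.41 and 14.47. The first 9 libraries overlapped freely, and the highest 20 mM library lay 1.45 log2 units below the lowest of them. Its mean was 233 ± 62.3 FPKM for the controls, 258 ± 44.1 for 5 mM, 234 ± 120 for 10 mM and 31.2 ± 18.8 for 20 mM (SD, n = 3). The log2 change against control was -3.01 ± 0.43 at 20 mM (SE), compared with 0.17 at 5 mM and -0.08 at 10 mM.

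XM_010111548.1 had the next largest fall but a wide spread in every group other than 5 mM. It measured 498.63, 169.05 and 516.76 FPKM in the controls, 293.90, 225.49 and 257.77 with 5 mM, 519.42, 139.47 and 276.13 with 10 mM and 107.82, 30.47 and 65.02 at 20 mM. Control replicate 2 and 10 mM replicate 2 were the lowest of their groups and lay nearest to the 20 mM range, with a gap of 0.37 log2 units. Its mean was 395 ± 196 FPKM in the controls against 67.8 ± 38.7 with 20 mM (SD, n = 3), and the log2 difference was -2.53 ± 0.55 (SE). These 2 were the members with the largest fall among those with a control mean of at least 5 FPKM. All other transcripts named below were chosen after their values were seen.

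**Figure D2:**
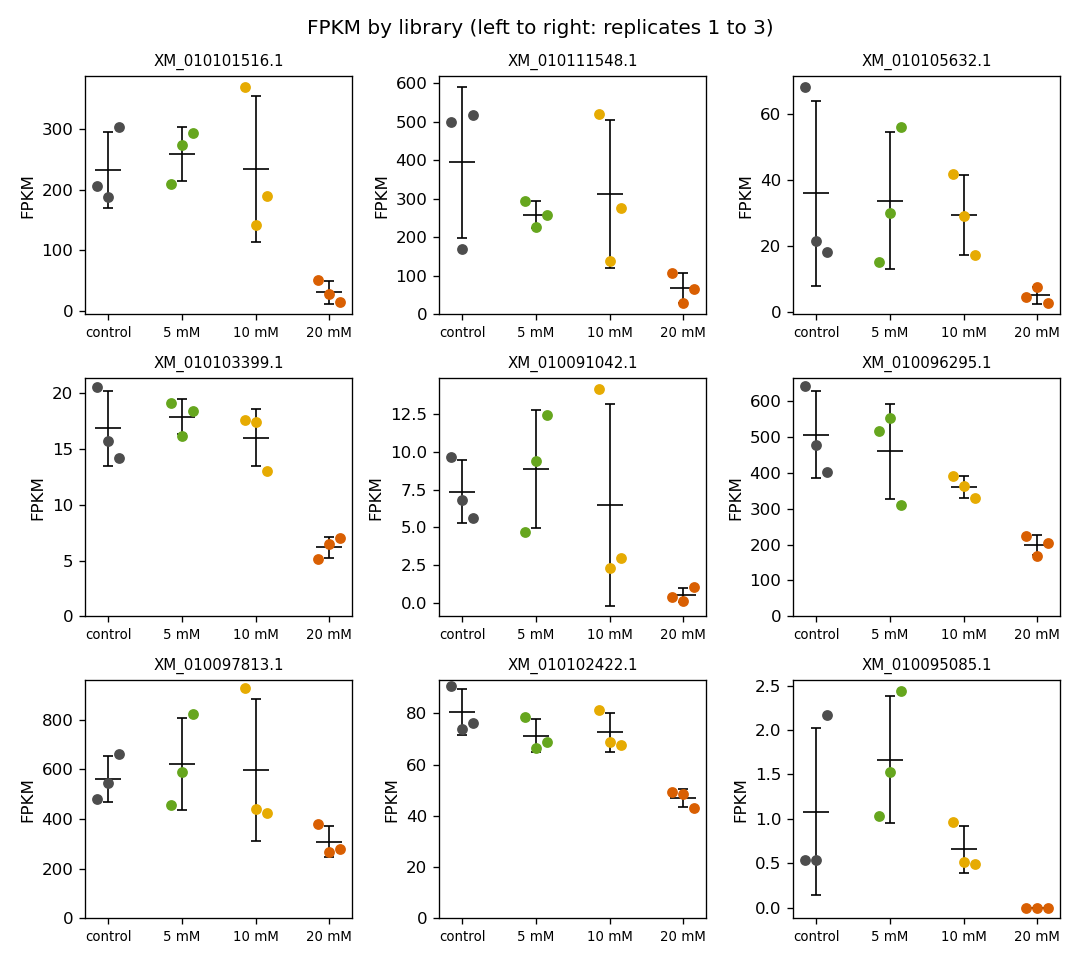
Points are FPKM in single libraries (replicates 1 to 3 from left to right), and horizontal marks with bars are the mean ± SD of 3 libraries, for 9 members. In each panel the 3 points of 20 mM lie below the other 9, and the 10 mM points of XM_010101516.1, XM_010111548.1, XM_010091042.1 and XM_010097813.1 are split, with replicate 1 highest.

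Wide separation was not restricted to high levels. XM_010105632.1, which had the next widest gap (0.88 log2 units), ranged from 15.01 to 68.17 FPKM over the 9 libraries outside 20 mM and stood at 4.67, 7.67 and 2.76 FPKM at 20 mM. Control and 20 mM means were 35.9 ± 28.0 and 5.03 ± 2.48 FPKM (SD, n = 3). XM_010103399.1 paired a smaller fall with tight replicates. It measured 20.59, 15.74 and 14.21 FPKM in the controls, 19.13, 16.12 and 18.39 with 5 mM, 17.57, 17.39 and 13.04 with 10 mM and 5.17, 6.44 and 7.00 at 20 mM. Its 9 values outside 20 mM lay in a narrow band, its gap was 0.81, and its log2 change against control was -1.30 ± 0.21 (SE). Across the 64 members the gap had a median of 0.22 log2 units. It was 0.5 or more in 10 members but under 0.1 in 18 and under 0.05 in 10, so for the latter a small shift in 1 library would have ended the separation.

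**Figure D3:**
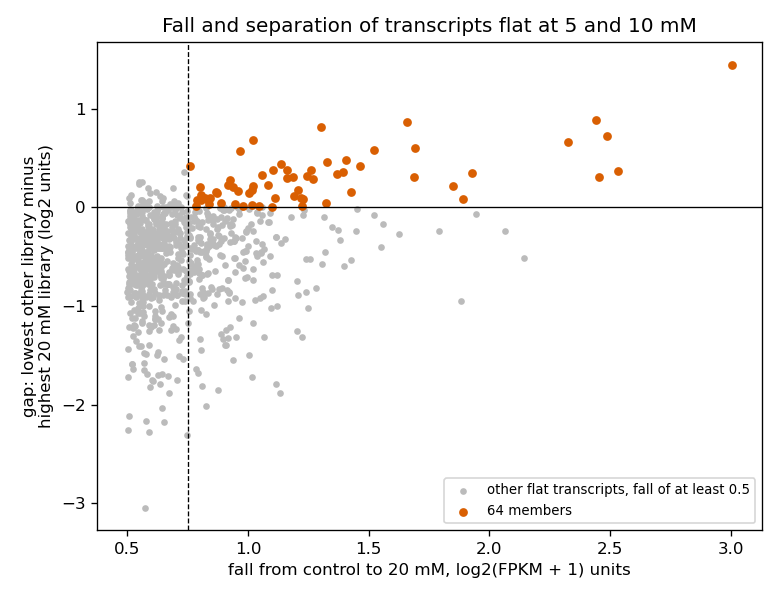
The horizontal axis is the fall from control to 20 mM and the vertical axis is the gap between the lowest other library and the highest 20 mM library, both in log2(FPKM + 1) units, for transcripts within 0.5 of control at 5 and 10 mM that fell by 0.5 or more. Members (orange) fill the part above a gap of 0 and right of the dashed line at 0.75, and most of them lie close to the horizontal line, with XM_010101516.1 alone at a gap of 1.45.

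At the limits of the rule the choice was one of degree. Just inside the limit on the fall stood XM_010102422.1 at 0.761, with the next members at 0.783 and 0.787, and just outside stood transcripts at 0.745, 0.742 and 0.734. XM_010102422.1 had tight replicates, at 90.64, 74.09 and 76.41 FPKM in the controls, 78.70, 66.56 and 68.82 with 5 mM, 81.44, 68.75 and 67.75 with 10 mM and 49.44, 48.41 and 42.91 at 20 mM. Its 9 other libraries lay between 66.56 and 90.64 FPKM and its mean at 20 mM was 46.9 ± 3.51 FPKM (SD, n = 3). The narrowest gaps inside the rule were 0.008, 0.010 and 0.010, and the nearest overlaps outside it were -0.006, -0.009 and -0.011.

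Members covered the range of levels in about the shares of the whole table. The control mean was under 5 FPKM in 20 members (31.2%, against 34.4% of all tested transcripts), 5 to 20 FPKM in 18 (28.1% against 29.0%), 20 to 100 FPKM in 19 (29.7% against 26.0%) and at least 100 FPKM in 7 (10.9% against 10.7%). The median control mean was 13.7 FPKM among members and 10.5 among all tested. The median fall on the log2(FPKM + 1) scale was 1.09, 1.33, 1.06 and 1.02 from the lowest to the highest of these classes. The median ratio of FPKM in control to that at 20 mM was 7.06 in the lowest class among members listed at 20 mM, with a range of 2.61 to 36.8, and 2.79, 2.16 and 2.05 in the others. Low members need a large ratio to reach a fall of 0.75 on this scale, so the ratios of the classes are not comparable as effects.

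**Figure D4:**
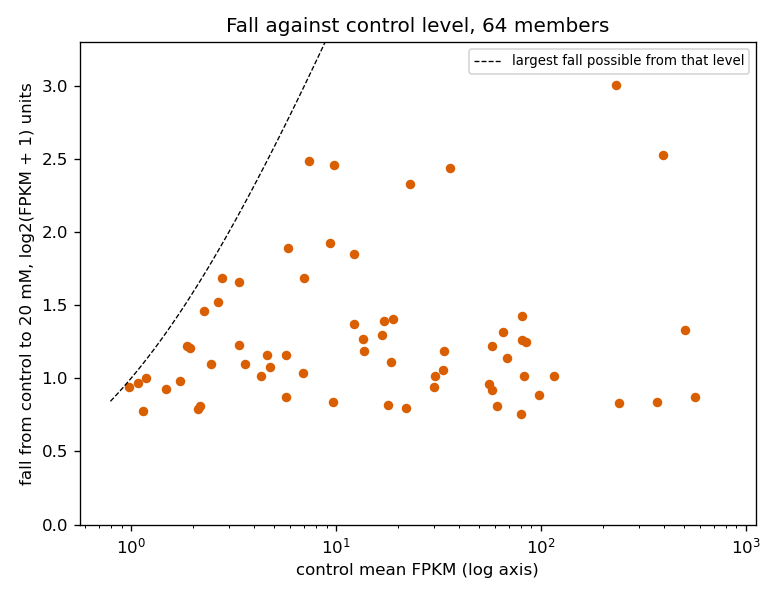
Each point is 1 member, with its control mean FPKM on a log axis and its fall from control to 20 mM in log2(FPKM + 1) units, and the dashed curve is the largest fall that a level allows. Several members with a control mean under 5 FPKM lie near the curve, and the 6 members with a fall of at least 2 all have control means above 5 FPKM.

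Among the 7 members with a control mean of at least 100 FPKM the fall ran from 0.83 to 3.01, and XM_010111548.1 and XM_010101516.1, given above, were the 2 with the largest. The members with the 2 highest control means fell by less. XM_010097813.1 had the highest control mean of the set, with 480.77, 544.21 and 661.76 FPKM, and stood at 455.62, 588.35 and 822.23 at 5 mM, 926.04, 440.35 and 424.91 at 10 mM, and 380.91, 267.67 and 278.35 at 20 mM. Its highest 20 mM library lay close below 10 mM replicates 2 and 3 (a gap of 0.16), and the change against control was -0.87 ± 0.32 (SE). XM_010096295.1 measured 641.29, 478.75 and 401.76 FPKM in the controls, 517.39, 554.31 and 309.55 with 5 mM, 390.81, 363.87 and 329.09 with 10 mM and 224.15, 168.21 and 204.64 at 20 mM. Its group means followed the order of the doses, at 507, 460, 361 and 199 FPKM, and at 10 mM it lay 0.47 below control, just within the limit of 0.5. The 5 most abundant members held 55.1% of the set's summed control FPKM. Together the 64 members held 0.485%, 0.331% and 0.425% of the FPKM sum in the controls, 0.387%, 0.360% and 0.401% at 5 mM, 0.512%, 0.314% and 0.313% at 10 mM and 0.185%, 0.159% and 0.165% at 20 mM.

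Low members rested on few fragments. The separation and the filter together ensured that all 64 had at least 1 FPKM in 3 or more libraries outside 20 mM. At 20 mM, 40 members were at 1 FPKM or more in all 3 libraries, 15 were under 1 FPKM in all 3 and 9 were mixed. The separation also meant that every member was listed in every library outside 20 mM, as a value of 0 there could not qualify. At 20 mM, which had no such limit, 12 were unlisted, and so set to 0, in at least 1 library. XM_010095085.1 was the only member listed in no 20 mM library. It stood at 0.53, 0.54 and 2.17 FPKM in the controls, 1.03, 1.53 and 2.44 with 5 mM and 0.96, 0.51 and 0.49 with 10 mM.

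The low values step in multiples, which gives an estimate of the fragments behind them. In 14 of 23 members with a lowest listed value from 0.05 to under 1 FPKM, all values under 8.5 multiples lay within 0.1 of a whole multiple of 1 step, after allowing for rounding to 2 decimals. For XM_010095085.1 the step was 0.515 FPKM, which implies 1, 1 and 4 fragments in the controls, 2, 3 and 5 at 5 mM, 2, 1 and 1 at 10 mM and 0 in each 20 mM library. Its separation from the 10 mM and control libraries therefore rested on single fragments. Over the 14 members the implied fragments of the 3 libraries summed to between 6 and 56 in control and between 0 and 16 at 20 mM, with 5 or fewer at 20 mM in 10 of them. The steps are estimates.

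The lower doses were flat by rule, but not evenly so. At 5 mM the changes ran from -0.46 to 0.43 with a median of -0.16, against 0.07 for all tested transcripts, and 41 of 64 members (64.1%) lay below their control mean, as did 42.4% of all tested. At 10 mM they ran from -0.50 to 0.35 with a median of -0.13, against 0.09, and 45 members (70.3%) lay below, as did 41.2% of all tested. Both doses share their control libraries with the 20 mM contrast that chose the members. Within 0.2 of control at both doses were 21 members. The highest group mean was that of the control in 31 members, of 5 mM in 21 and of 10 mM in 12, and 13 had means that fell at each step of dose.

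The 10 mM group mean concealed a split between its libraries. Replicate 1 was higher than replicates 2 and 3 in 44 members (68.8%), as it was in 37.8% of all tested transcripts and in 38.6% of those within 0.5 of control at 5 and 10 mM. Among the 251 of the latter that fell by 0.75 or more but overlapped, it was higher in 115 (45.8%). The median difference of members from their control mean was 0.23 in 10 mM replicate 1 but -0.35 in replicate 2 and -0.35 in replicate 3, where all tested transcripts had medians of 0.10, 0.13 and 0.08. The controls differed by number as well, with members' medians of 0.16, -0.25 and 0.04 in replicates 1, 2 and 3, and replicate 1 was the highest control in 32 members (50.0%), as in 38.0% of all tested transcripts. Over all tested transcripts, deviations from the group mean in control and 10 mM libraries of 1 number correlated at 0.268, 0.170 and 0.176 for replicates 1, 2 and 3. For control and 20 mM the correlations were -0.0241, -0.146 and -0.187, so such values need not mean pairing. Set against the control of the same number, the members' median was 0.04 for replicate 1, -0.13 for replicate 2 and -0.47 for replicate 3 of 10 mM, where all tested transcripts had 0.04, 0.25 and 0.00. The members' contrast between replicates 1 and 2 was thus smaller against same-numbered controls, while replicate 3 stayed low. In both replicates 2 and 3 the members' median lay below that of all tested transcripts, whereas in replicate 1 the medians were equal. Replicates 2 and 3 both lay below all 3 controls in 21 members, as they did in 12.2% of all tested transcripts. The mean of those 2 libraries lay 0.5 or more below control in 21 of the 64 (32.8%), as in 12.7% of all tested transcripts. For these 21 the description as repressed at 20 mM alone held only with replicate 1 in the 10 mM mean. Against control replicates 2 and 3 alone, a comparison chosen after seeing the data, 19 members lay that far below, 15 of them among the 21, as did 11.9% of all tested transcripts. The members' spread within 10 mM, a median SD of 0.50 log2 units, was also wider than in control (0.42), at 5 mM (0.32) and at 20 mM (0.28). Over all tested transcripts these SDs were 0.32, 0.34, 0.27 and 0.30 in the same order. A wide spread at 10 mM is partly a product of the rule, which bounds that group's mean and not its libraries.

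XM_010091042.1, a member with a large fall, shows the split. It measured 9.67, 6.83 and 5.62 FPKM in the controls, 4.69, 9.43 and 12.46 with 5 mM, 14.19, 2.33 and 2.96 with 10 mM and 0.39, 0.12 and 1.02 at 20 mM. Replicate 1 at 10 mM was its highest library of all 12, while replicates 2 and 3 lay between the control and the 20 mM ranges. The 10 mM mean was 0.49 below control, but the mean of replicates 2 and 3 was 1.18 below it.

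**Figure D5:**
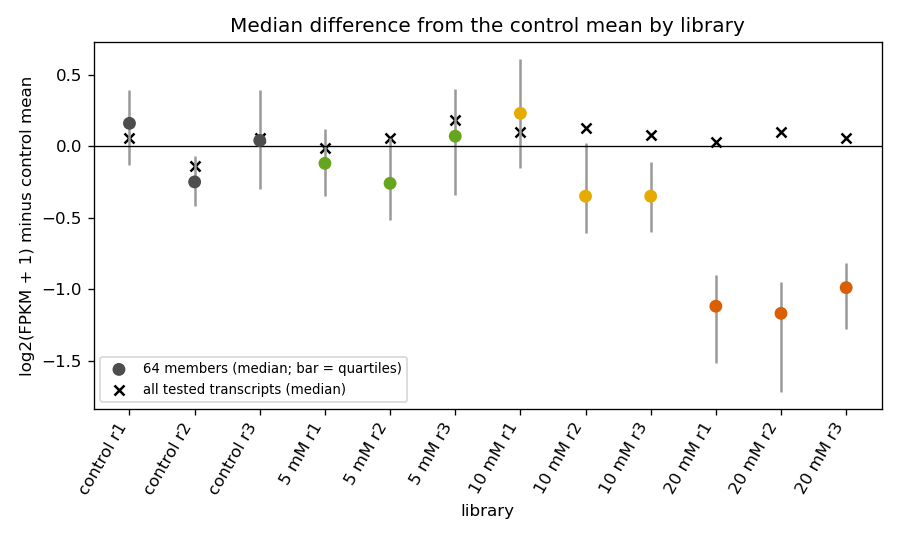
Coloured points are the median over the 64 members of log2(FPKM + 1) minus the control mean in each library, bars are the quartiles over members, and crosses are the median over all tested transcripts. The members' medians are -1.12, -1.17 and -0.99 at 20 mM, and at 10 mM they are split into 0.23 for replicate 1 and -0.35 for each of replicates 2 and 3, while the crosses stay between -0.14 and 0.18.

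The same library entered the mirror-image set. Of the 92 transcripts that rose only at 20 mM, 54 (58.7%) had 10 mM replicate 1 below replicates 2 and 3, as did 34.6% of all tested transcripts. In 20 of the 92 (21.7%) the mean of replicates 2 and 3 lay 0.5 or more above control. The matching share of all tested transcripts is not given, so that count has no background to be read against. Applied without 10 mM replicate 1, the rule gave 61 transcripts, of which 42 were among the 64. Of the 22 members that dropped out, 21 had a mean of 10 mM replicates 2 and 3 at 0.5 or more below control and 1 had it at 0.5 or more above.

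The size of the set depended on single libraries elsewhere too. Leaving out replicate 2 or 3 of the 10 mM group raised it to 97 and 101. Leaving out replicate 1, 2 or 3 of the 20 mM group raised it to 109, 130 and 197. These sets held 57, 64, 59, 61 and 61 of the 64 members. Without a 20 mM library, fewer libraries had to be separated and the 20 mM mean changed too. The part of each was not tested. Without control replicate 1, 2 or 3 the count was 69, 85 and 60, of which 48, 45 and 39 were members. The library nearest to the 20 mM range was from 10 mM in 30 members, from 5 mM in 24 and from control in 10, and it was 10 mM replicate 2 or 3 in 25 of those 30. The rule required a fall of 0.75 against the control mean alone, so these counts partly reflect the choice of members.

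Deviations of members from their group means showed a weak correlation between pairs, with a median of 0.20 over 2016 pairs across the 12 libraries, against 0.05 for pairs of all tested transcripts. The correlation exceeded 0.7 in 7.59% of member pairs and in 3.42% of all pairs. Over the 9 libraries outside 10 mM the medians were 0.12 and 0.06. All pairs share the same libraries, so these values describe them and carry no test.

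Tests across the whole table are given beside the set only as background, since the rule used their contrasts. With limma on log2(FPKM + 1) and a Benjamini-Hochberg adjusted threshold of 0.05, 123 of 17782 transcripts (0.692%) were called lower at 20 mM than in control, and 9 of the 64 members were among them. Without adjustment, at 0.05, 61 members were lower, as were 6.96% of all tested transcripts. The count of 9 moved with the libraries that entered the fit. It was 1 without control replicate 1, where the members' median change was -1.08 in place of -1.15, and 5 without control replicate 3, where the median stayed at -1.15. It was 4 when any of the 5 mM libraries was left out, and 16 and 6 without replicate 1 or 3 of 10 mM. Libraries of 5 and 10 mM enter this contrast only through the estimate of spread and its degrees of freedom, so the change itself stayed as it was. For XM_010091042.1 it was -2.49 with or without 5 mM replicate 1, and the adjusted p from limma was 0.0454 and 0.0531. Omitting replicate 1, 2 or 3 of 20 mM gave 1, 2 and 3, with median changes of -1.12, -1.11 and -1.24. Against the mean of the other 3 groups, 13 members were called lower, as were 0.388% of all tested. That count was 7 when control replicate 1 or 3 was left out. It was 7, 4 and 4 when replicate 1, 2 or 3 of 5 mM was, and 3, 2 and 3 when replicate 1, 2 or 3 of 20 mM was.

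The steps from the lower doses gave fewer calls. Between 20 and 5 mM, XM_010101516.1 and XM_010103399.1 were the 2 members called lower by limma, beside 0.202% of all tested transcripts. Their log2 changes in that contrast were -3.17 ± 0.43 and -1.40 ± 0.21 (SE). Omitting replicate 1, 2 or 3 of 5 mM gave 1, 0 and 0 calls, omitting replicate 1 or 2 of 20 mM gave 1 each, and omitting replicate 1 of 10 mM gave 5 calls. Between 20 and 10 mM, 0 members and 0.0% of all tested transcripts were called lower by limma, while at an unadjusted 0.05 53 members and 5.46% of all tested were. Without 20 mM replicate 1 the adjusted count of 0 members became 1. Against control, 0 members were called lower by limma at 5 mM, where 0.0% of all tested were, and 0 at 10 mM, where 0.0337% were. At an unadjusted 0.05, 1 member was lower at 5 mM, where 4.18% of all tested were, and 0 were lower at 10 mM, where 4.97% were. The limit of 0.5 on the group means keeps such counts low.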

How the data were processed

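Messenger RNA was sequenced from 12 root samples. For each library the authors deposited FPKM values, per the file headers. The headers call the entries genes, and they are called transcripts here for their XM identifiers. For the aligner, counter, build and filters, the sources used here name nothing. Only values above 0 are listed, the lowest being 0.01, and unlisted transcripts were set to 0. FPKM is relative to each library's total, so a change in abundant transcripts shifts the others.

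Groups and replicate numbers came from the sample titles. The members and the lists were chosen with earlier results of these data known. Lists set as patterns in product descriptions could not be applied, since the identifiers carry no names. Under the naming rule for that case, the 2 members with the largest fall and a control mean of at least 5 FPKM are named.

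All 17782 transcripts with at least 1 FPKM in 3 or more libraries were fitted as log2(FPKM + 1) with limma 3.58.1 in R 4.3.3, with group means over all 12 libraries, a mean-variance trend, no block and two-sided tests. Benjamini-Hochberg adjustment was over all transcripts of a contrast. The fit was tested on simulated data with independent noise, in which only transcripts of higher level were lowered. That simulation does not cover low members or libraries that differ within a group. Median scaling moved the median change of all transcripts at 10 mM against control by -0.11 log2 units, from 0.09 to -0.02. Same-numbered libraries of control and 10 mM deviated together across transcripts, with correlations of 0.268, 0.170 and 0.176, all above a limit of 0.1. For no other 2 groups did all 3 pairs exceed that limit. Control and 5 mM came nearest, at 0.0205, 0.128 and 0.202. Negative values also occurred, at -0.0241, -0.146 and -0.187 for control and 20 mM, so correlations of this size need not mean pairing. Absolute depth is unknown, so no counting interval is given.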

Additional observations from a re-analysis of the deposited data

How the results depend on the processing

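The number of members was 64 with a pseudocount of 0.1 (52 of them members), 64 without a filter, 63 after median scaling (48 shared), 65 after quantile normalization (50 shared), 48 and 79 with limits of 0.4 and 0.6 at the lower doses, and 94 and 44 with a minimum fall of 0.5 and 1. With a mean of at least 5 FPKM it was 41, because fewer transcripts could enter, and it ran from 60 to 197 when 1 library was left out. The 9 members called lower at 20 mM against control became 5 without a filter, 15 after median scaling, 14 after quantile normalization, 4 with robust moderation in place of the trend and 3 where the 2 groups were fitted alone, with 5, 8, 8, 4 and 2 of the 9 among them. The count ran from 1 to 16 when 1 library was left out. For 20 mM against 10 mM the count of 0 became 1 with a mean of at least 5 FPKM and ran from 0 to 1 when 1 library was left out. For 20 mM against 5 mM, whose alternatives were chosen after seeing the data, 2 became 4 with a pseudocount of 0.1 and 6 where the 2 groups were fitted alone, and ran from 0 to 5 when 1 library was left out. Against the mean of the other 3 groups, 13 became 7 without a filter and 8 with robust moderation in place of the trend, and ran from 2 to 13. The median change of -1.15 became -1.43 with a pseudocount of 0.1, which weighs low members more, and ran from -1.29 to -1.08. Apart from the filters and the pseudocount, the cause was not tested. The replicate numbers did not pair 20 mM with any other group, and with the replicate block the counts were 10 against control (6 of the 9 among them), 0 against 10 mM, 3 against 5 mM and 15 against the mean of the others. For the 9 named members, 136 of 179 alternative values stayed on the same side of the threshold, 34 lost a call, 9 gained one and 0 changed sign. XM_010111548.1, XM_010105632.1, XM_010097813.1 and XM_010095085.1 were not called against control in the main fit. Their 14, 18, 20 and 18 same-side values were thus uncalled ones. The other named members were called there. XM_010091042.1 lost its call in 13 settings and kept it in 7, and XM_010102422.1 lost it in 12 and kept it in 8. XM_010096295.1 lost it in 6, XM_010103399.1 in 3 and XM_010101516.1 in 0. Depth limits the low members, of which 10 rest on 5 or fewer implied fragments at 20 mM.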
